A study of Homo sapiens with 19 samples.

Results

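The nuclear wash of K562 cells was compared with their cytoplasm, gene by gene. K562 is an established human erythroleukaemia line that expresses fetal globins. The comparison used 8 of the 19 libraries of the series, 4 of nuclear wash and 4 of cytoplasm, chosen by their labels, and all 58051 human genes of the deposited count tables. Both groups were untreated K562 fractions whose RNA was extracted with Trizol LS, received synthetic yeast spike-in transcripts, and was depleted of rRNA during the preparation of stranded total RNA libraries. The labels name neither the buffer that gave the wash nor the culture behind each replicate, so the spread that enters the p-values is that of these libraries and may be technical. Libraries of 4 nuclei and 4 whole cells served to estimate the spread and as points of orientation, and 3 libraries of the wash made without rRNA depletion served as an alternative.

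The outer membrane of the nucleus is continuous with the endoplasmic reticulum (ER), and both carry ribosomes on the side that faces the cytosol. An mRNA that encodes a secreted or membrane protein is usually brought to that surface while it is translated: a hydrophobic signal peptide or first membrane segment emerges from the ribosome, is bound by the signal recognition particle, and is handed to the Sec61 channel. Tail-anchored proteins are an exception, because their only hydrophobic segment lies at the far end and leaves the ribosome when translation is over, so that they are inserted afterwards. Cytosolic and nuclear proteins, and most mitochondrial proteins of nuclear origin, are made on ribosomes that are not engaged with the Sec61 channel.

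The hydrophobic segments that separate these classes can be read in the coding sequences. The 6 sequences below were taken from GENCODE release 29 transcripts on GRCh38 and are shown because the values described next differ between them. Each is the coding strand, 5′ to 3′, and spans 120 bases, which is 40 codons: the first 40 codons of HSPA5, HSPA8, PPIB and PPIA, and the last 40 codons before the stop of SEC61B and FKBP8. Within the part shown, capitals mark the 19 consecutive codons whose residues have the highest mean hydropathy on the Kyte-Doolittle scale, on which positive values are hydrophobic. HSPA5 (the ER chaperone BiP, chr9:125234853-125241330, minus strand) and PPIB (cyclophilin B of the ER lumen, chr15:64155812-64163205, minus strand) are secretory, and HSPA8 (chr11:123057489-123063230, minus strand) and PPIA (chr7:44796680-44824564, plus strand) are their cytosolic relatives. SEC61B (chr9:99222064-99230615, plus strand) is a subunit of the Sec61 channel and FKBP8 (chr19:18531751-18544077, minus strand) a prolyl isomerase relative of the mitochondrial surface and ER, and both are anchored by their tails.
HSPA5: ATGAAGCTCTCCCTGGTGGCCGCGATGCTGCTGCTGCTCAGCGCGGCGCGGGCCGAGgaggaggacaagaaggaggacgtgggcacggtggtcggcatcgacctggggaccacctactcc
HSPA8: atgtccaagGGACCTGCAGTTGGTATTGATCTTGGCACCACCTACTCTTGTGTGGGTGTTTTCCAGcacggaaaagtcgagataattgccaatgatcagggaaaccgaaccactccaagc
PPIB: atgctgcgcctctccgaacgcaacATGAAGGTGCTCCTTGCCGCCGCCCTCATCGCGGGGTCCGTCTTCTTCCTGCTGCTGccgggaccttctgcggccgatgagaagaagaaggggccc
PPIA: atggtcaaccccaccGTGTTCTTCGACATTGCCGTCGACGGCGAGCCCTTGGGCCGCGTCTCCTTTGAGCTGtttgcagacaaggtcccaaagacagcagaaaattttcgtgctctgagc
SEC61B: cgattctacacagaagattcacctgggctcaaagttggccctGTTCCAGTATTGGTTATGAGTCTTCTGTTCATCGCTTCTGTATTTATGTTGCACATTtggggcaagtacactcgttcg
FKBP8: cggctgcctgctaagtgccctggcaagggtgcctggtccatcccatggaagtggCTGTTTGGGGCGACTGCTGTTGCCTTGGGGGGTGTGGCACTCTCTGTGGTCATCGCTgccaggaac
The mean hydropathy of the capitals was 1.38 in HSPA5 against 0.75 in HSPA8, and 2.38 in PPIB against 0.69 in PPIA. It was 2.41 in SEC61B and 2.20 in FKBP8, so the tail anchors were as hydrophobic as the start of PPIB but lay at the other end of the protein.

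Large parts of the transcriptome differed in both directions. Of 15940 genes that passed the filter, 3637 (22.8%) were higher and 3416 (21.4%) lower in the wash by edgeR's quasi-likelihood test at a Benjamini-Hochberg adjusted p under 0.05. These shares are the background for the numbers of higher and lower genes given below for lists and classes on exon counts. CPM values, which are counts scaled to a common library size, were set so that the typical gene does not change, and over all genes the log2 fold change had a median of 0.05. All directions below are relative to that typical gene: scaled to the spike-in transcripts instead, the median gene was lower in the wash by -3.10 on the log2 scale. At least 2-fold differences were found for 2148 of the higher genes and 655 of the lower genes, and at least 4-fold differences for 542 and 9. The wash and cytoplasm libraries did not overlap in 6094 (38.2%) of the tested genes, so a lack of overlap in a single gene is common here. The nucleus gave a point of orientation. Of the higher genes, 1631 had a wash mean above the nuclear mean as well, and 2006 did not, so that the wash lay between cytoplasm and nucleus or level with the nucleus. Of the lower genes, 2643 had a nuclear mean below the wash mean.

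Wash libraries held 3377669, 7165198, 6860720 and 6048191 exon counts and cytoplasm libraries 5561300, 7955415, 7757180 and 7826998. The fetal globin HBG2 had 3326 to 13758 reads in the wash and 18847 to 23723 in the cytoplasm, whereas the B cell gene MS4A1 had 0 reads in all 8 libraries. Of 28 markers of other cell types, 18 did not pass the filter on low counts and 5 of those (MS4A1, S100A8, KRT14, CDH5 and SNAP25) were at 0 in all 8 libraries. The 10 that passed summed to 619 to 700.5 CPM in the wash and 260.2 to 357.9 CPM in the cytoplasm, and 8 of them, among them the secreted or surface proteins FN1 and COL1A2, were higher in the wash. Not all genes taken beforehand as absent from K562 were absent. EPCAM had 490 to 928 reads in the wash and 243 to 427 in the cytoplasm, and PECAM1 had 115 to 238 and 68 to 87. Column names divide the libraries into prefix 1 (replicates 1 and 2) and prefix 2 (replicates 3 and 4), and values within a prefix are given beside some of the results. A letter follows the prefix number, and wash and cytoplasm of the same replicate number share both. What the number and letter stand for is not given.

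Chaperones of the ER lumen were among the genes that rose. HSPA5 had 1387, 1004, 1477 and 1378 CPM in the wash, against 269.9, 271.1, 321.1 and 405.8 CPM in the cytoplasm. The lowest wash library was above the highest cytoplasm library (log2 fold change 2.05, SE 0.163, edgeR adjusted p = 5.37e-09). Its cytosolic relative HSPA8, which folds and unfolds proteins in the cytosol, had 3093, 2828, 1306 and 1309 CPM in the wash and 2889, 2752, 2062 and 2018 CPM in the cytoplasm. The groups overlapped, with the wash libraries of prefix 1 at the level of the cytoplasm and those of prefix 2 below it (log2 fold change -0.19, SE 0.339, edgeR adjusted p = 0.679).

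A ratio of 2 genes within a library does not depend on how libraries are scaled. The log2 ratio of HSPA5 to HSPA8 was -1.16, -1.49, 0.18 and 0.07 in the wash and -3.42, -3.34, -2.68 and -2.31 in the cytoplasm, a difference of 2.34 that lay between 2.08 and 2.64 when any single library was left out. The wash libraries of prefix 2 were higher than those of prefix 1, and so were the cytoplasm libraries, but all wash ratios were above all cytoplasm ratios. PPIB had 398.1, 279.1, 372.7 and 369.4 CPM in the wash and 170.2, 195.9, 163.5 and 171 CPM in the cytoplasm, with no overlap (log2 fold change 1.02, SE 0.142, edgeR adjusted p = 8.1e-06). PPIA, whose many processed copies make its count uncertain, did not pass the test (-0.30, edgeR adjusted p = 0.096), and the log2 ratio of the pair was 0.82 ± 0.30 in the wash and -0.48 ± 0.35 in the cytoplasm (SD, n = 4 each).

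Relatives that differ in their compartment were compared in the same way in 14 pairs, each a secretory or ER-bound protein and a cytosolic or nuclear member of its family. The log2 ratio was higher in the wash in 14 of 14 pairs, by 0.19 to 2.34 with a median of 1.56, and the libraries of wash and cytoplasm did not overlap in 11. Among single genes the libraries did not overlap in 38.2% of those tested, and no such share was taken for ratios of other genes. Among chaperones, HYOU1 over HSPA4 differed by 1.93, HSP90B1 (GRP94) over HSP90AB1 by 1.6 and DNAJB11 over DNAJB1 by 1.78. Among redox enzymes and prolyl isomerases, PRDX4 over PRDX2 differed by 1.69, TXNDC12 over TXN by 1.51 (0.56 with the undepleted wash) and FKBP2 over FKBP1A by 1.94. FKBP2 itself was higher by 0.61 (edgeR adjusted p = 0.0245), a call lost without wash replicate 1 (0.34, edgeR adjusted p = 0.152), wash replicate 3, cytoplasm replicate 3 or cytoplasm replicate 4, and with counts over whole gene bodies the ratio of that pair was lower in the wash, by -0.65. SERPINH1, the collagen chaperone, over the cytosolic protease inhibitor SERPINB6 differed by 1.96, and the ER aminopeptidase ERAP1 over its cytosolic relative NPEPPS by 1.08. With gene-body counts, ERAP1 over NPEPPS differed by 0.05, as ERAP1 lost its call (0.07, edgeR adjusted p = 0.482), and PRDX4 over PRDX2 by 0.54.

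Not every pair differed through its secretory member alone. FKBP1A (-1.34), PRDX2 (-0.78) and TXN (-0.69) were lower, beside 0.61, 0.89 and 0.81 for FKBP2, PRDX4 and TXNDC12. HSPA4 (0.09) and HSP90AB1 (0.32) were not lower, so those pairs differed through the secretory member. PTPN1, a tyrosine phosphatase held on the ER by its tail, had a log2 fold change of -0.06 (edgeR adjusted p = 0.656), while its largely nuclear relative PTPN2 fell by 0.91 on the log2 scale (edgeR adjusted p = 2.23e-05), and the ratio differed by 0.84 with exon counts and by 0.41 with gene-body counts. The groups overlapped in MAN2B1 over MAN2C1, which differed by 0.19, in ACSL3 over ACSS2, which differed by 0.63, and in HSPA13 over HSPA1A, which differed by 1.15. With the undepleted wash ACSL3 over ACSS2 differed by 0.36 and HSPA13 over HSPA1A by 0.07. HSPA1A has a near-identical copy, so its counts are uncertain, and it had 163.7, 129.2, 41.55 and 55.64 CPM in the wash and 110.9, 127.2, 32.8 and 25.76 CPM in the cytoplasm. Both fractions were higher in the libraries of prefix 1.

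**Figure D1:**
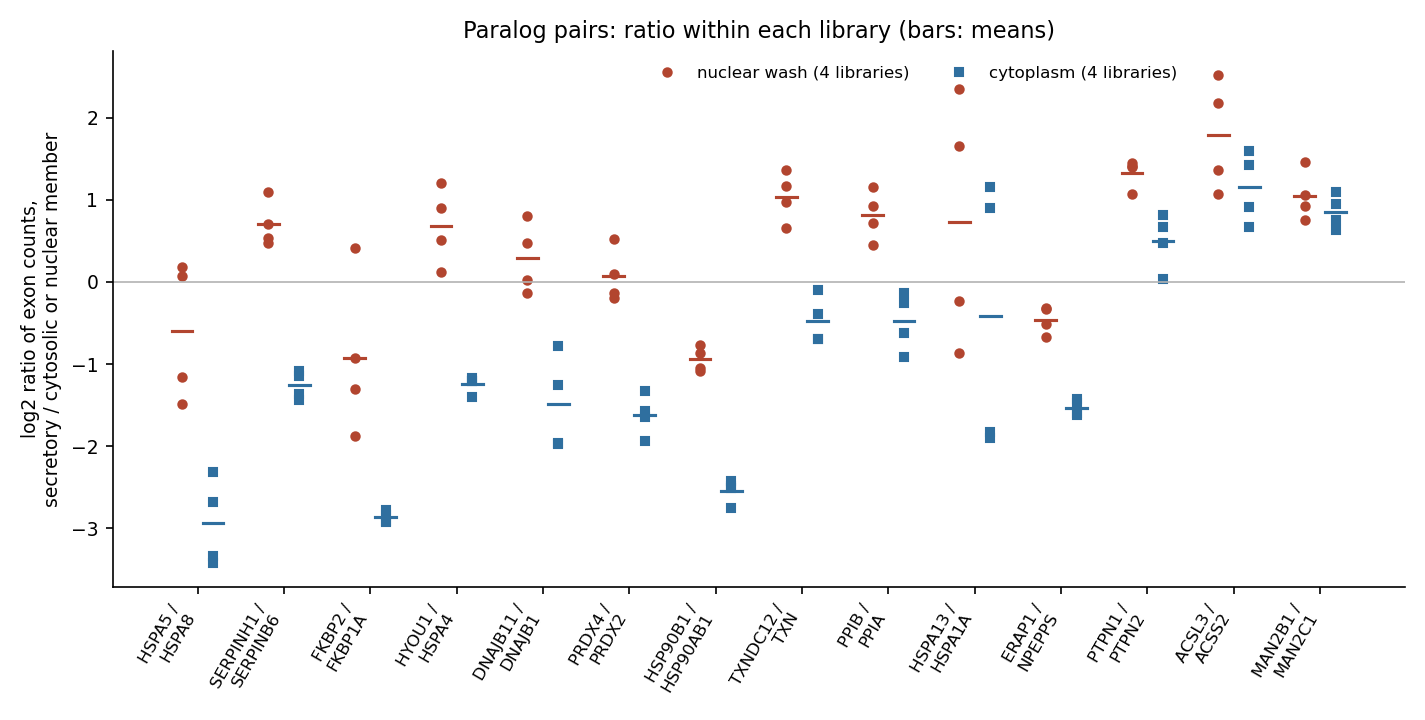
The vertical axis is the log2 ratio of exon counts of the secretory member to its cytosolic or nuclear relative within each library, for 14 pairs along the horizontal axis in order of their difference. Red circles are the 4 nuclear wash libraries and blue squares the 4 cytoplasm libraries of each pair, with bars at the means; wash lies above cytoplasm without overlap in 11 pairs, and the groups overlap in HSPA13/HSPA1A, ACSL3/ACSS2 and MAN2B1/MAN2C1.

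The wider list of ER lumenal chaperones and folding enzymes moved in the same direction. Of 30 members, 29 were tested, and 27 were higher and 0 lower in the wash. The other 2, TXNDC5 and SDF2L1, had log2 fold changes of 0.24 and 0.27. The median of the list was 1.40, against 0.05 over all genes, and the mean of the wash was above the means of both cytoplasm and nucleus in 29 of 29. The share of all tested genes with such a wash mean was not taken. This count, here and for the lists below, is therefore a description without a background. HYOU1, an exchange factor for HSPA5, had a log2 fold change of 2.00 (SE 0.128, edgeR adjusted p = 2.55e-10).

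Genes of the later secretory pathway rose as well. Of 47 Golgi glycosyltransferases and nucleotide-sugar transporters tested, 37 were higher and 1 lower, with a median of 0.77. EXT2, which polymerises heparan sulphate, was higher by 1.65 on the log2 scale, C1GALT1C1, the chaperone of the core O-glycan synthase, by 1.70, and B4GALT2, a galactosyltransferase, was the 1 that fell (-0.83, edgeR adjusted p = 0.000518). Of 36 lysosomal proteins, 32 were higher and 1 lower, with a median of 1.28. The membrane protein LAMP2 had 205.7, 268, 309.9 and 247.9 CPM in the wash and 54.94, 71.19, 52.8 and 65.27 CPM in the cytoplasm (log2 fold change 2.08, SE 0.157, edgeR adjusted p = 2.47e-09). The lowest wash library held nearly 3 times the highest cytoplasm library. IDS, the iduronate sulphatase, was the 1 lower member (-0.83, edgeR adjusted p = 0.00132).

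Receptors and adhesion proteins of the plasma membrane gave 51 higher and 0 lower of 54 tested, with a median of 1.37. APLP2, a relative of the amyloid precursor, had 1513, 1081, 1357 and 1177 CPM in the wash, against 291, 313.5, 274.6 and 303.2 CPM in the cytoplasm (log2 fold change 2.12, SE 0.124, edgeR adjusted p = 8.35e-11). IGF2R, the receptor that carries lysosomal enzymes, had 907.3, 727.7, 901.6 and 916 CPM in the wash and 156.5, 177.2, 221.9 and 236.6 CPM in the cytoplasm. In each of these genes every wash library was more than 3-fold above every cytoplasm library. TFRC, the transferrin receptor by which erythroid cells take up iron, was higher by 1.37 (SE 0.227, edgeR adjusted p = 5.75e-05). The markers of other cell types that were higher in the wash are mostly proteins of this kind, and their part in the list was not tested.

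Transporters and unclassified membrane proteins were more mixed. Of 138 solute carriers outside the mitochondrial SLC25 family, 84 were higher and 4 lower, with a median of 0.81. SLC16A4, a monocarboxylate transporter that overlaps another gene, was higher by 3.34 and averaged 73.9 CPM in the nucleus, above every wash library. SLC2A14, a glucose transporter, was higher by 2.32 and SLC36A4, an amino acid transporter, was lower by -1.26. Of 134 genes with TMEM names, 50 were higher and 19 lower, with a median of 0.27. The higher ones encoded proteins with a median of 340.5 residues, the lower ones of 230 and those not called of 245. TMEM131L was higher by 1.72, TMEM30A, the partner of phospholipid flippases, by 1.59 (0.35 in the undepleted wash, edgeR adjusted p = 0.0524), and TMEM183A was lower by -1.03 (edgeR adjusted p = 1.23e-06). Of 27 genes of GPI-anchor assembly, 12 were higher, 2 lower and 13 not called, with a median of 0.23. PIGO was higher by 1.68 and PIGK by 1.56, and PIGA, the catalytic subunit of the first step, was the named lower one (-0.61, edgeR adjusted p = 0.00197).

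The machinery of translocation itself held members of both directions. Of 29 subunits of the translocon, the oligosaccharyltransferase and the signal peptidase, 16 were higher and 5 lower, with a median of 0.44. STT3A, the catalytic subunit that transfers glycans to nascent chains, had 433, 441.3, 479 and 386.2 CPM in the wash and 121.4, 132.9, 121.6 and 138.5 CPM in the cytoplasm. No wash library came near the cytoplasm (log2 fold change 1.76, SE 0.111, edgeR adjusted p = 2.27e-10). OST4, a subunit of the same enzyme with 37 residues, had 16.56, 14.01, 19.44 and 15.75 CPM in the wash and 33.72, 35.66, 28.53 and 31.07 CPM in the cytoplasm, again without overlap but in the other direction (-0.97, SE 0.16, edgeR adjusted p = 5.58e-05).

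The 16 higher subunits had 162 to 826 residues with a median of 372, and the 5 lower ones 37 to 113 with a median of 96. The 8 that were not called had 79 to 638 residues with a median of 205.5, so that they spanned both groups. Beside OST4 the lower ones were SEC61G (-0.74), SEC61B (-0.74), DAD1 (-0.54) and SPCS1 (-0.37), which were named after their values had been seen. SEC61A1, the pore of the channel to which SEC61B and SEC61G belong, was higher by 1.18 (edgeR adjusted p = 5.71e-08) and was also chosen after its value had been seen. SEC61B had 15.45, 5.915, 10.88 and 8.795 CPM in the wash and 18.25, 18.76, 11.91 and 17.02 CPM in the cytoplasm. The groups overlapped in 1 library each, and the call (edgeR adjusted p = 0.016) was lost without wash replicate 2 (-0.54, edgeR adjusted p = 0.0698). The call of SPCS1 was lost without wash replicate 4 (-0.32, edgeR adjusted p = 0.0504), with only the 8 libraries (-0.29, edgeR adjusted p = 0.0658) and within prefix 1 (-0.23, edgeR adjusted p = 0.239). Within prefix 2 SEC61B (-0.55, edgeR adjusted p = 0.0675) and DAD1 (-0.40, edgeR adjusted p = 0.0696) were not called. In the undepleted wash 4 of the 5 lower subunits were not called: SEC61B gave 0.18, SEC61G -0.44, DAD1 -0.46 and SPCS1 -0.01 (edgeR adjusted p = 0.639, 0.14, 0.146 and 0.966).

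Tail-anchored membrane proteins went the opposite way from the receptors and the lumenal proteins. Of 38 members, 37 were tested, and 0 were higher and 28 lower, with a median of -0.60. FKBP8 had 63.65, 65.22, 99.68 and 91.64 CPM in the wash and 204.9, 218.3, 198.6 and 187.4 CPM in the cytoplasm. The wash libraries of prefix 1 were the lowest, and all wash libraries lay below all cytoplasm libraries (log2 fold change -1.33, SE 0.15, edgeR adjusted p = 5.35e-07). VAMP7, a SNARE of late endosomes, had 65.12, 92.77, 87.91 and 83.25 CPM in the wash and 184.3, 193.5, 176.8 and 190 CPM in the cytoplasm (-1.17, edgeR adjusted p = 2.6e-07). A hydrophobic stretch was found in the proteins of 31 of the 37, and those that fell had 66 to 691 residues. The mean of the wash was above the means of both cytoplasm and nucleus in 1 of 37, against 29 of 29 for the lumenal proteins. Other membrane proteins that were mostly lower, those of mitochondria, are described further on, and 2 of the 37, neither of them called, stand in the list of mitochondrial import and outer membrane proteins as well.

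Cholesterol synthesis runs through enzymes of the ER membrane and enzymes of the cytosol, and the lists of these differed. Of 16 membrane enzymes, 8 were higher and 0 lower, with a median of 0.44. DHCR7, the last reductase, had 162.2, 147.1, 218.4 and 202.5 CPM in the wash and 64.07, 68.32, 83.69 and 71.2 CPM in the cytoplasm, with no overlap (log2 fold change 1.35, SE 0.146, edgeR adjusted p = 3.34e-07). Of 8 cytosolic enzymes, 0 were higher and 4 lower, with a median of -0.38. PMVK, phosphomevalonate kinase, had 3.311, 1.712, 4.101 and 4.091 CPM in the wash and 8.529, 8.594, 9.707 and 7.495 CPM in the cytoplasm (-1.39, SE 0.263, edgeR adjusted p = 0.000229). All wash libraries lay below all cytoplasm libraries. MVD, the decarboxylase of the same branch, was lower by -0.66. Neither was called in the undepleted wash, where PMVK gave -0.43 and MVD -0.39 (edgeR adjusted p = 0.402 and 0.196).

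**Figure D2:**
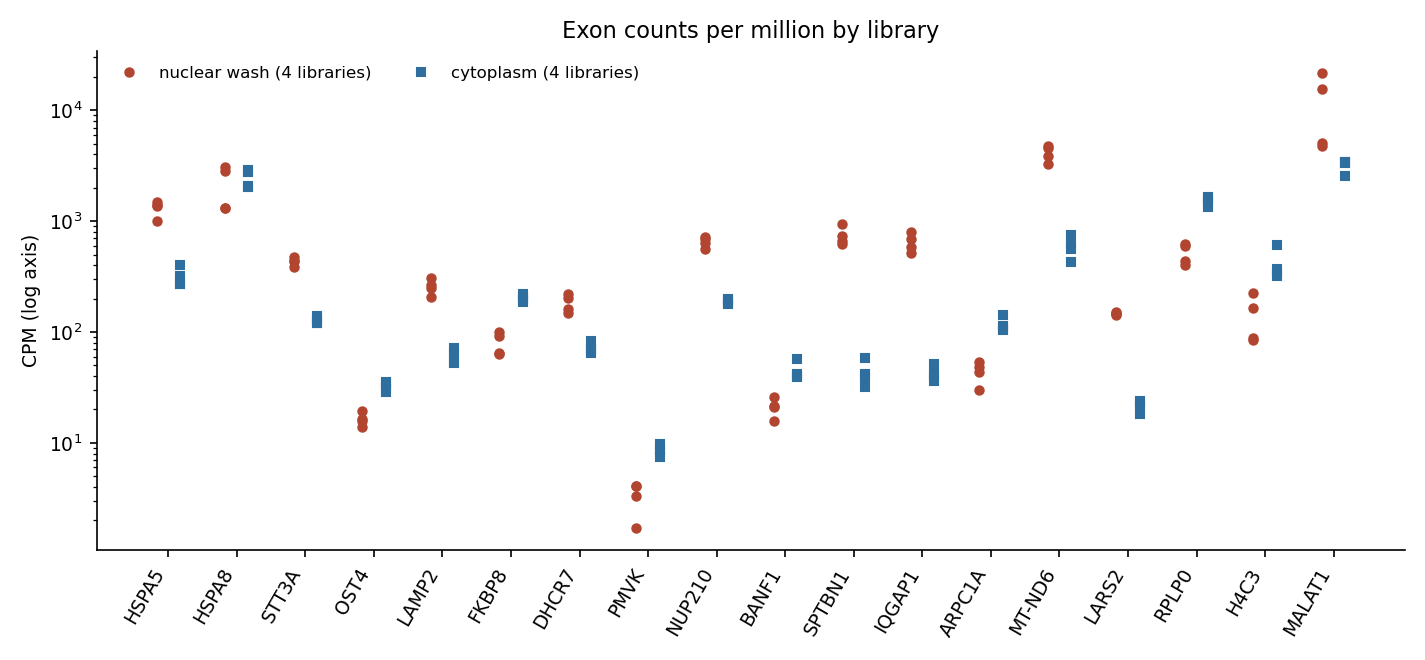
The vertical axis is CPM on a log axis and the horizontal axis gives 18 genes named in the text; red circles are the 4 nuclear wash libraries and blue squares the 4 cytoplasm libraries, 1 point a library. HSPA5, STT3A, LAMP2, DHCR7, NUP210, SPTBN1, IQGAP1, MT-ND6, LARS2 and MALAT1 lie higher in the wash, OST4, FKBP8, PMVK, BANF1, ARPC1A, RPLP0 and H4C3 lower, and HSPA8 overlaps between the groups.

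The list of nuclear lamina and inner nuclear membrane proteins gave 15 higher and 3 lower of 23 tested, with a median of 0.64. It also held membrane proteins of the nuclear pore, among them NUP210. NUP210, a pore protein that crosses the membrane, had 559.2, 630.6, 713.1 and 686 CPM in the wash and 179.7, 183.9, 199.9 and 195.3 CPM in the cytoplasm (log2 fold change 1.77, SE 0.113, edgeR adjusted p = 2.55e-10). Every wash library was more than 2-fold above every cytoplasm library. The 3 lower members were BANF1, a small chromatin-binding protein without a membrane segment (-1.09, edgeR adjusted p = 5.21e-05), and, named after their values had been seen, the tail-anchored emerin EMD (-0.74) and the lamin LMNB2 (-0.48), of which EMD gave 0.05 and LMNB2 -0.10 in the undepleted wash (edgeR adjusted p = 0.858 and 0.612). The soluble proteins of the nuclear pore, by comparison, gave 6 higher and 4 lower of 25, with a median of 0.03, where all genes gave 22.8% higher and 21.4% lower, so that the count does not set the list apart. The 6 higher had 1391 to 2090 residues, the 4 lower 421 to 741 and the 15 not called 326 to 3224. NUP155 was higher by 0.55 (edgeR adjusted p = 0.00176), though lower by -0.61 in the undepleted wash (edgeR adjusted p = 0.00506) and not called within prefix 1 (0.36, edgeR adjusted p = 0.0683) or with gene-body counts (0.22, edgeR adjusted p = 0.13), and SEH1L was lower by -0.71 (edgeR adjusted p = 0.00106).

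Vesicle coat proteins, which are cytosolic and bind membranes only from outside, gave 4 higher and 10 lower of 36, with a median of -0.10. The small adaptor subunits AP3S1 (-1.11) and AP1S1 (-1.03) were the named lower ones, of which AP3S1 was not called with gene-body counts (-0.45, edgeR adjusted p = 0.0857) and AP1S1 not in the undepleted wash (-0.66, edgeR adjusted p = 0.0527). The higher ones had 953 to 1675 residues, the lower ones a median of 238.5 and those not called a median of 872.5.

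Several of the largest increases belonged to large proteins of the membrane skeleton and the actin cortex, which carry no signal peptide. SPTBN1 (beta-spectrin, chr2:54456285-54671445) had 944, 622.1, 733.3 and 666 CPM in the wash and 39.27, 31.94, 41.48 and 57.93 CPM in the cytoplasm. The lowest wash library was more than 10-fold above the highest cytoplasm library (log2 fold change 4.12, SE 0.171, edgeR adjusted p = 3.95e-13). IQGAP1 (chr15:90388218-90502243), a scaffold that links actin to small GTPases, had 804.6, 684.4, 582.9 and 516.7 CPM in the wash and 36.1, 39.67, 41.92 and 51.22 CPM in the cytoplasm, also more than 10-fold apart (3.94, SE 0.148, edgeR adjusted p = 8.55e-14). The nucleus was far above the cytoplasm in both genes as well, so the increase was not particular to the wash. SPTBN1 averaged 464.1 CPM in the nucleus and 741.4 CPM in the wash, and IQGAP1 425.9 and 647.2 CPM. SPTAN1, the alpha-spectrin that pairs with SPTBN1, was higher by 3.81 (SE 0.181, edgeR adjusted p = 3.13e-12). DBN1, the actin-bundling drebrin, had 550.8, 250.1, 286.2 and 279.2 CPM in the wash and 22.02, 27.79, 30.3 and 38.1 CPM in the cytoplasm (3.52, SE 0.25, edgeR adjusted p = 1.07e-09). Wash replicate 1 was about 2-fold above the other wash libraries.

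The list of spectrins, filamins and large actin scaffolds gave 29 higher and 0 lower of 43 tested, with a median of 0.78 and a highest value of 4.12. FLNA (1.13), a crosslinking filamin, was named after its value had been seen. The actin nucleator DIAPH1, also chosen after its value had been seen, had 2798, 2749, 2956 and 2587 CPM in the wash and 336, 340.7, 339.6 and 365.5 CPM in the cytoplasm (3.0, SE 0.105, edgeR adjusted p = 3.67e-14). Its family, the formins, was listed after that: 2 of the 8 tested were higher, DIAPH1 and DAAM1 (0.46), and 0 lower. Over all genes 22.8% were higher, so the count of higher formins does not set the family apart. DAAM1 was not called within prefix 2 (0.19, edgeR adjusted p = 0.312), with gene-body counts (0.28, edgeR adjusted p = 0.0578) or in the undepleted wash (0.33, edgeR adjusted p = 0.0939). Small actin regulators, actins and tubulins gave the opposite picture, with 0 higher and 26 lower of 40 and a median of -0.59. ARPC1A and ARPC1B, alternative subunits of the Arp2/3 complex, fell by 1.39 and 1.19 on the log2 scale (edgeR adjusted p = 1.36e-06 and 8.14e-07). The members of the first list that rose had a median of 2054 residues, those of it that were not called 943.5, the members of the second that fell a median of 225 and those of it that were not called 409.5.

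Other cytoskeletal lists held members of both directions, where all genes gave 22.8% higher and 21.4% lower. Of 38 centrosome, spindle pole and dynein-dynactin proteins, 11 were higher and 5 lower, with a median of 0.02, and of 30 kinesins 7 were higher and 6 lower, with a median of -0.04, near the shares over all genes. The kinesins that rose had a median of 1232 residues, those that fell of 930.5 and those not called of 1368. DYNC1H1, the heavy chain of dynein, had 1842, 1757, 1373 and 1463 CPM in the wash and 422.1, 459.3, 647.6 and 638.2 CPM in the cytoplasm (log2 fold change 1.57, SE 0.209, edgeR adjusted p = 4.52e-06). All wash libraries were more than 2-fold above all cytoplasm libraries. ASPM, a spindle pole protein, had 763, 728.9, 225.4 and 227.2 CPM in the wash and 180.3, 176.2, 155.9 and 170.7 CPM in the cytoplasm, so that the wash libraries of prefix 1 stood more than 3-fold above those of prefix 2. KIF7 was higher by 0.74 (0.60 in the undepleted wash, edgeR adjusted p = 0.0962) and KIF2A, a microtubule depolymerase, lower by -0.77.

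Other genes among the largest increases in transcripts that overlap no other annotated gene were RRBP1 (2.39), the ribosome receptor that holds polysomes on the ER, HRC (2.33), a calcium-binding protein known from the sarcoplasmic reticulum of muscle, and ALDH18A1 (2.69), a mitochondrial enzyme of proline synthesis. RRBP1 had 108.9, 25.37, 30.49 and 33.14 CPM in the wash and 6.942, 10.46, 8.383 and 10.15 CPM in the cytoplasm. Wash replicate 1 stood more than 3-fold above the other wash libraries, and the other 3 were still above the cytoplasm. The largest decreases in such transcripts included GPX4, the glutathione peroxidase of lipid peroxides, with 97.13, 107.6, 145 and 127.6 CPM in the wash and 395.3, 418.2, 303.4 and 387.7 CPM in the cytoplasm (-1.65, SE 0.156, edgeR adjusted p = 5.09e-08). They also included MZT1, a small protein of the gamma-tubulin ring (-1.65), and FTL, the ferritin light chain (-1.59).

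**Figure D3:**
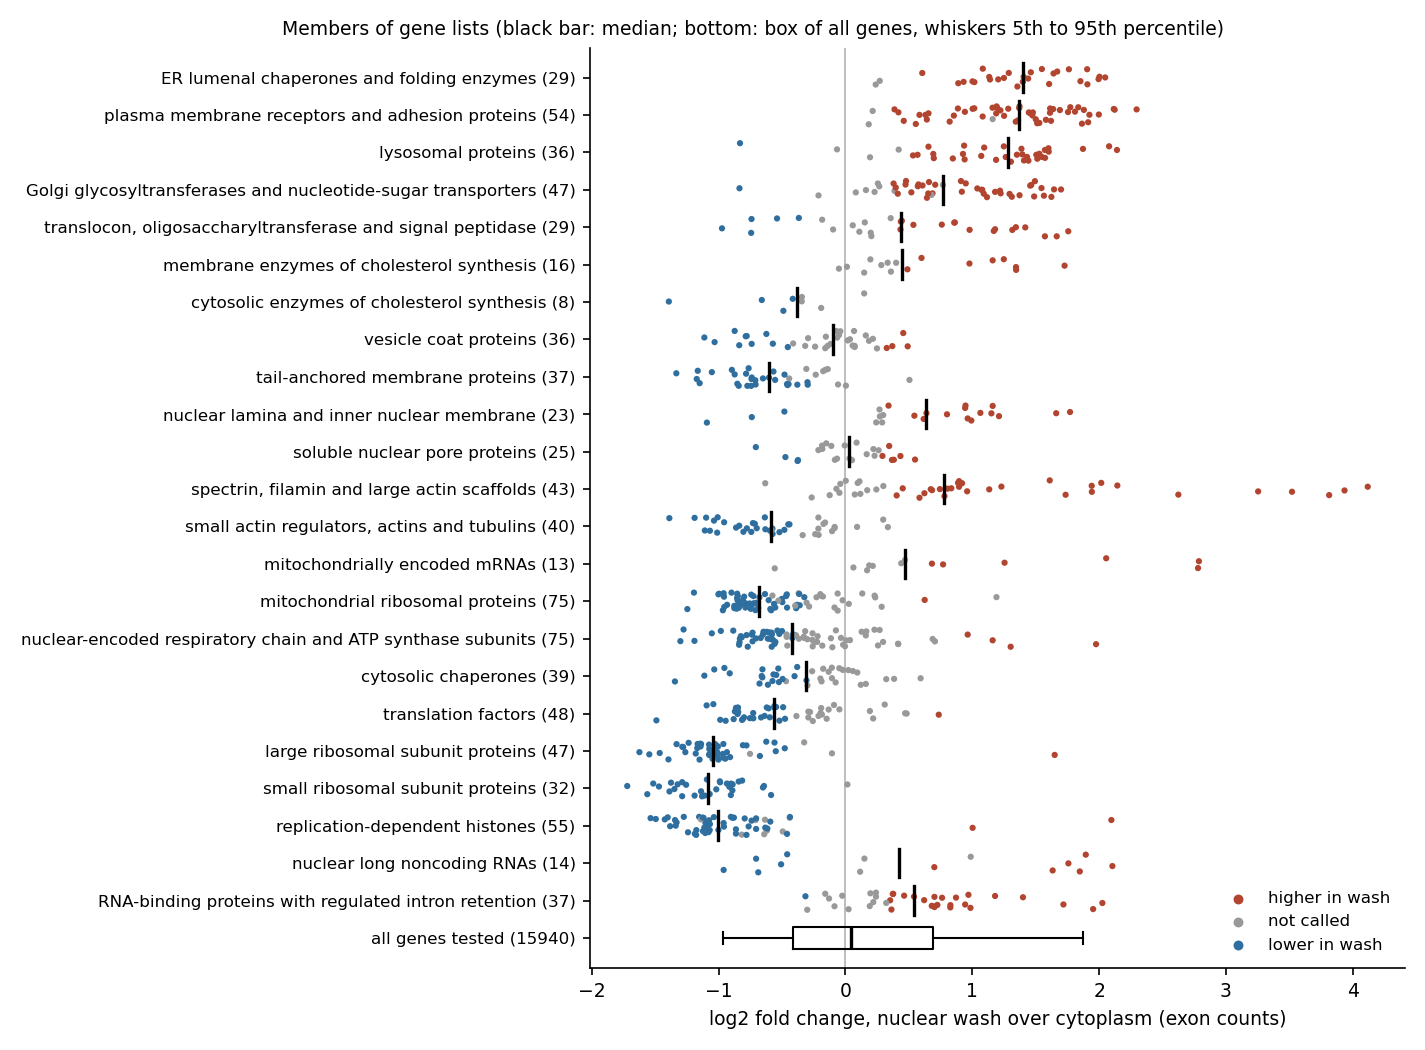
The horizontal axis is the log2 fold change of exon counts, nuclear wash over cytoplasm, and each row is a gene list with its number of tested members; each point is a gene, red where called higher, blue where called lower and grey where not called, black bars are list medians, and the box at the bottom shows all 15940 genes with whiskers at the 5th and 95th percentile. The 27 red points of 29 in the ER lumenal row and the 28 blue points of 37 in the tail-anchored row lie on opposite sides of 0, and the spectrin and actin scaffold row reaches 4.12.

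Some RNAs made inside mitochondria were higher in the wash. Of the 13 mRNAs of the mitochondrial genome, 6 were higher and 0 lower, with a median of 0.47. MT-ND6 (chrM:14149-14673, minus strand), a subunit of respiratory complex I and the only mRNA encoded on its strand, had 3838, 3263, 4733 and 4584 CPM in the wash and 424.7, 562.5, 640.2 and 751.4 CPM in the cytoplasm, with every wash library more than 4-fold above every cytoplasm library (log2 fold change 2.79, SE 0.182, edgeR adjusted p = 3.72e-10). MT-ND3, of the same complex but the opposite strand, had 1375, 1175, 1292 and 1155 CPM in the wash and 123.2, 151.3, 215.5 and 237.3 CPM in the cytoplasm (2.78, SE 0.187, edgeR adjusted p = 5.01e-10). MT-CO2, which had the lowest fold change of the 13 and was picked for it, gave -0.56 (edgeR adjusted p = 0.10) with overlapping libraries. The mRNAs of the mitochondrial genome lie within 1 long transcript per strand, and neighbouring genes can share reads. Mitochondrial rRNA took 22.7% ± 3.64 of the exon counts in the wash and 20.8% ± 1.66 in the cytoplasm (SD, n = 4 each, two-sided exact permutation test, p = 0.429).

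Nuclear genes for mitochondrial proteins mostly went the other way. Of 75 mitochondrial ribosomal proteins, 1 was higher and 54 lower, with a median of -0.68, and MRPL54 and MRPL14 fell by 1.25 and 1.19 on the log2 scale. MRPL14 was not called with gene-body counts (-0.11, edgeR adjusted p = 0.62) or in the undepleted wash (-0.01, edgeR adjusted p = 0.977). Of 75 respiratory chain and ATP synthase subunits, 4 were higher and 36 lower, with a median of -0.42, against 0.15 with the undepleted wash. NDUFA5, a small subunit of complex I, had 128, 164.8, 126.8 and 142 CPM in the wash and 328.5, 331.4, 322.1 and 379.9 CPM in the cytoplasm (-1.28, SE 0.122, edgeR adjusted p = 5.82e-08), with all wash libraries under the lowest cytoplasm library by almost 2-fold. The 4 higher subunits included NDUFV2 (1.98) and SDHA (1.16), the second of which was named after its value had been seen. SDHA, the flavoprotein of complex II with 664 residues, had 260.8, 286.9, 343.3 and 308 CPM in the wash and 126.3, 129.9, 129.9 and 150.5 CPM in the cytoplasm.

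The SLC25 carriers, which span the inner mitochondrial membrane several times, gave 5 higher and 21 lower of 39, with a median of -0.53. SLC25A23 was lower by -1.42 and SLC25A6, an ATP/ADP exchanger, by -1.17. SLC25A16 was the named higher one (1.05). Import and outer membrane proteins gave 0 higher and 19 lower of 31, with a median of -0.55, and TIMM8B, a small import chaperone, was lower by -1.05. Hydrophobic stretches were found in 25 of the 39 carriers.

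A list of mitochondrial aminoacyl-tRNA synthetases was drawn up after high values of LARS2 and IARS2 had been seen. LARS2, which charges mitochondrial leucine tRNA, had 146.8, 147.2, 152.3 and 142.4 CPM in the wash and 23.8, 18.05, 20.59 and 22.95 CPM in the cytoplasm (log2 fold change 2.79, SE 0.119, edgeR adjusted p = 5.09e-13). IARS2, for isoleucine, had 750.9, 905.3, 844.2 and 744.3 CPM in the wash and 128.9, 113, 156.2 and 156.9 CPM in the cytoplasm (2.55, SE 0.128, edgeR adjusted p = 8.1e-12). In both genes the lowest wash library was more than 4-fold above the highest cytoplasm library. Of the 17 members, 8 were higher and 3 lower, with a median of 0.20. The higher ones had a median of 810.5 residues, the lower ones of 475 and those not called of 512. The cytosolic synthetases gave 0 higher and 3 lower of 22, with a median of -0.02, and KARS1, which serves both compartments, was lower by -0.53.

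Most transcripts for cytosolic ribosomal proteins were lower in the wash. Large ribosomal subunit proteins gave 1 higher and 43 lower of 47, with a median of -1.04, and small ribosomal subunit proteins 0 higher and 31 lower of 32, with a median of -1.08. RPLP0, a stalk protein, had 398.8, 436.6, 625.2 and 597.5 CPM in the wash and 1488, 1336, 1648 and 1543 CPM in the cytoplasm. The highest wash library held less than 50% of the lowest cytoplasm library (-1.55, SE 0.147, edgeR adjusted p = 5.71e-08). RPS2 and RPS12 fell by 1.72 and 1.56 on the log2 scale. Ribosomal protein genes have many processed copies, and how shared reads were counted is not given in the sources used here. Translation factors gave 1 higher and 29 lower of 48, with a median of -0.56. TPT1 fell by 1.49 and the elongation factor EEF1A1 by 1.09, and EIF4G1, the 1599-residue scaffold of the cap-binding complex, was the 1 that rose (0.74, edgeR adjusted p = 0.000572), a call lost with gene-body counts (0.37, edgeR adjusted p = 0.0551).

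Other cytosolic lists were lower to a lesser degree. Proteasome subunits gave 2 higher and 21 lower of 35, with a median of -0.36, and PSMB2 was lower by -0.84. Cytosolic chaperones gave 0 higher and 19 lower of 39, with a median of -0.31, and VBP1, a prefoldin subunit, was lower by -1.11. Glycolytic enzymes gave 1 higher and 6 lower of 17, with a median of -0.18. GAPDH had 907.3, 1043, 1071 and 1107 CPM in the wash and 1920, 1778, 2188 and 1696 CPM in the cytoplasm (-0.88, SE 0.119, edgeR adjusted p = 5.69e-06), and HK2, a hexokinase of the mitochondrial surface, was the 1 that rose (0.49, edgeR adjusted p = 0.00443), a call lost with gene-body counts (0.16, edgeR adjusted p = 0.382) and in the undepleted wash (0.30, edgeR adjusted p = 0.0912). ACTB, the common reference beta-actin, did not pass the test (-0.21, edgeR adjusted p = 0.0841) although its wash libraries lay below those of the cytoplasm.

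Replication-dependent histones, whose short mRNAs end without a poly(A) tail, gave 2 higher and 45 lower of 55 tested, with a median of -1.0. H4C3 had 89.03, 83.9, 165 and 226.2 CPM in the wash and 337.8, 320.8, 612.7 and 369 CPM in the cytoplasm (-1.54, SE 0.293, edgeR adjusted p = 0.000249). The wash libraries of prefix 1 were the lowest. Histone genes are near-identical copies, so counts of single members are uncertain. Among genes of erythroid and megakaryocytic identity, 6 were higher and 14 lower of 34, with a median of -0.35. The ferritin chains FTL, with 174.8, 194.4, 200.1 and 234.6 CPM in the wash and 582.3, 564.5, 621.3 and 657.7 CPM in the cytoplasm, and FTH1 (-1.37) were the named lower ones, and ITGA2B, the integrin of platelets, the named higher one (1.92). Immediate early and short-lived mRNAs gave 2 higher, 4 lower and 26 not called of 32, with a median of -0.13. Both shares were under the 22.8% higher and 21.4% lower of all genes. ATF4 (-1.06) and JUND (-1.03) were lower and IER5 (0.50) higher. In the undepleted wash ATF4 gave -0.73 and JUND 0.06 (edgeR adjusted p = 0.0764 and 0.768), and IER5 was not called within prefix 1 (0.38, edgeR adjusted p = 0.0891) or with gene-body counts (0.14, edgeR adjusted p = 0.476). The 401 zinc finger genes with ZNF names gave 62 higher and 51 lower, with a median of 0.05, the same as over all genes.

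Some of the genes that were higher within lists that were mostly lower had a nuclear mean above their wash mean, and 5 of them, picked with these values seen, are given here. RPL36A averaged 20.8 CPM in the wash, 64.4 CPM in the nucleus and 6.64 CPM in the cytoplasm. NDUFV2 averaged 14.6 CPM in the wash, 65.7 CPM in the nucleus and 3.76 CPM in the cytoplasm, and SLC25A16 averaged 33.5, 98.3 and 16.4 CPM in the same order. MRPS14 averaged 31.3, 58.0 and 20.2 CPM and the histone H2BC6 12, 36.7 and 5.64 CPM. Within prefix 2 MRPS14 (0.39, edgeR adjusted p = 0.0747) and H2BC6 (0.38, edgeR adjusted p = 0.246) were not called, and in the undepleted wash RPL36A (0.45, edgeR adjusted p = 0.427) and SLC25A16 (0.36, edgeR adjusted p = 0.236) were not. These 5 genes overlap another annotated gene, as 73.6% of the tested genes did, and reads of overlapping genes cannot be assigned with certainty here.

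A list drawn up as nuclear long noncoding RNAs was a mixed group. Of 14 tested, 6 were higher and 5 lower, with a median of 0.43. Not all of them were nuclear in these data. The log2 fold change of nucleus over cytoplasm was 2.88 to 4.96 in the 6 higher members and -2.43 to 0.92 in the 5 lower ones. MALAT1 (chr11:65497688-65506516), of nuclear speckles, had 21530, 15730, 5032 and 4777 CPM in the wash and 3389, 3330, 2545 and 3391 CPM in the cytoplasm (log2 fold change 1.9, SE 0.334, edgeR adjusted p = 0.000113). The wash libraries of prefix 1 held more than 3 times those of prefix 2, and the log2 fold change was 2.47 within prefix 1 and 0.72 within prefix 2. NEAT1, the scaffold of paraspeckles, had 725.1, 788.2, 741.5 and 598.5 CPM in the wash and 220, 217.6, 200.3 and 205.8 CPM in the cytoplasm, with little spread in either group (1.76, SE 0.127, edgeR adjusted p = 1.4e-09). KCNQ1OT1 was higher by 1.85, and FIRRE was lower by -0.96 with exon counts and differed by -0.02 with gene-body counts. The mean of the wash was above the means of both cytoplasm and nucleus in 1 of the 14.

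MIR17HG, the host of the miR-17-92 cluster, had 162.6, 221.7, 124.5 and 106.2 CPM in the wash and 28.96, 24.49, 17.06 and 19.83 CPM in the cytoplasm (2.77, SE 0.237, edgeR adjusted p = 1.34e-08), and averaged 630.2 CPM in the nucleus. H19, an imprinted RNA that is mostly cytoplasmic, fell by 1.13 on the log2 scale (edgeR adjusted p = 0.000416). Hosts of small nucleolar RNAs gave 11 higher and 4 lower of 20, with SNHG26 higher by 1.77 (0.93 in the undepleted wash, edgeR adjusted p = 0.143) and SNHG5 lower by -1.01. LINC-named genes gave 55 higher and 12 lower of 184 tested, with LINC00861 higher by 2.06. By annotated class, 199 of 634 lincRNAs were higher and 38 lower (median 0.62), 90 of 224 sense intronic transcripts were higher and 4 lower (median 1.22), and 24 of 80 small nucleolar RNAs were higher and 0 lower (median 1.07). Over all genes 22.8% were higher and 21.4% lower. The median log2 fold change of nucleus over cytoplasm was 2.07, 3.69 and 3.42 in these classes, in the same order. Where such genes overlap others, reads cannot be assigned with certainty, so intronic reads of other genes may be among them. Protein-coding genes gave 2354 higher and 3005 lower of 11310, with a median of -0.06.

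RNA-binding proteins whose transcripts are known to keep introns in the nucleus gave 24 higher and 1 lower of 37, with a median of 0.54. RSRP1 had 93.08, 75.34, 75.07 and 59.93 CPM in the wash and 22.41, 17.76, 14.27 and 19.99 CPM in the cytoplasm (log2 fold change 2.03, SE 0.151, edgeR adjusted p = 2.02e-09), and averaged 213.8 CPM in the nucleus. SRRM2, a very large speckle protein, was higher by 1.95 (edgeR adjusted p = 9.09e-09). The wash mean was above both other means in 6 of the 37.

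Intronic RNA was taken per gene as gene-body minus exon counts, set to 0 where negative. It made up 22.02, 26.08, 18.79 and 18.09% of intronic and exon counts together in the wash and 13.9, 13.65, 11.66 and 11.41% in the cytoplasm. The wash was higher by 8.59 percentage points without overlap (21.2 ± 3.65% against 12.7 ± 1.3%, SD, n = 4 each, two-sided exact permutation test, p = 0.0286, the smallest that 4 libraries against 4 can give). Paired by replicate number, the exact permutation p was 0.125, the smallest that 4 pairs can give. Both fractions were higher in prefix 1. In genes that overlap no other gene the shares were 9.05% in the wash and 3.87% in the cytoplasm. Intronic counts were then tested gene by gene, scaled so that the typical gene's intronic count does not change. Of 12483 genes, 1609 (12.9%) were higher and 2446 (19.6%) lower in the wash. Scaled by the factors of the exon counts instead, 9913 were higher and 262 lower, so the intronic directions that follow hold only relative to the typical gene's intronic count.

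Lists that differed on exons differed less on introns or in the other direction in several cases, and kept their direction in others. The median intronic log2 fold change was -0.32 for the ER lumenal list, where exons gave 1.40, and 0.34 for the tail-anchored list, where exons gave -0.60. The large actin scaffolds had an intronic median of -0.16, with 1 higher and 13 lower of 43. Golgi enzymes had a median of 0.24 on introns and 0.77 on exons, with 12 higher and 3 lower of 40 on introns. The nuclear lamina list gave 0.30 on introns and 0.64 on exons, the translocon list 0.17 and 0.44, and cytosolic chaperones -0.27 and -0.31. The RNA-binding proteins known for kept introns gave -0.09 on introns and 0.54 on exons, with 7 higher and 6 lower of 33 on introns. Of the members named above, SRRM2 gave -1.73 and RSRP1 0.21 on introns. HSPA5 had an intronic log2 fold change of -0.48 (edgeR adjusted p = 0.429) and SPTBN1 of 0.23 (edgeR adjusted p = 0.326). TFRC was lower on introns by -0.82 (edgeR adjusted p = 8.75e-06) and higher on exons by 1.37. Among the 2308 genes higher on exons that were also tested on introns, 371 were higher and 384 lower on introns, and among the 2606 lower on exons 511 were higher and 397 lower. Over all genes tested on introns 12.9% were higher and 19.6% lower, and the shares over the 10461 genes tested on both measures were not taken. Intronic counts hold the exon counts with opposite sign, so the 2 measures are not independent.

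**Figure D4:**
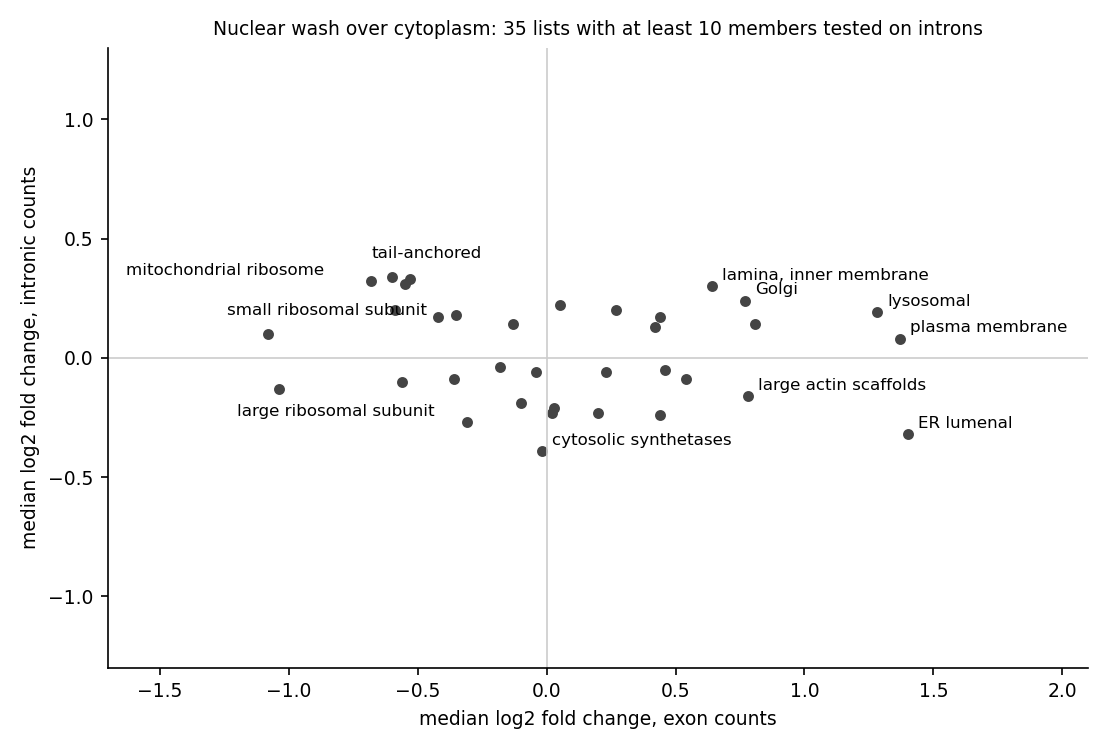
Each point is 1 of 35 gene lists with at least 10 members tested on introns; the horizontal axis is its median log2 fold change of exon counts and the vertical axis that of intronic counts, nuclear wash over cytoplasm. Exon medians run from -1.08 to 1.40 and intronic medians from -0.39 to 0.34, so the lists spread along the horizontal axis.

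Across coding genes the difference followed hydrophobic stretches and protein length. A stretch was counted where 19 consecutive residues had a mean hydropathy of at least 1.6, which misses some short signal peptides such as that of HSPA5. HSPA5 itself was counted through a stretch elsewhere in its protein, with a mean of 1.66. Of 3555 genes with such a stretch, 1391 were higher and 440 lower in the wash, with a median of 0.34. Of 7694 without one, 946 were higher and 2554 lower, with a median of -0.20. Proteins with 6 to 9 separate stretches gave 211 higher and 8 lower of 357, with a median of 0.77, and those with 10 or more gave 59 higher and 0 lower of 93, also with a median of 0.77.

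Length bore on genes without a stretch more than on genes with one. Without a stretch the median was -0.63 under 200 residues, -0.32 from 200 to under 500, -0.04 from 500 to under 1000 and 0.22 at 1000 or more. In the shortest class 61.8% were lower. With a stretch the medians were -0.08, 0.35, 0.43 and 0.39 in the same classes, so that the classes differed little above 200 residues. Exon length, which rises with protein length, gave medians of -0.33, -0.11, -0.02 and 0.14 in 4 classes of equal size, from short to long, and the GC content of the coding sequence gave -0.13, -0.05, -0.01 and -0.05 from low to high. Intronic medians ran the other way with length, 0.35 under 200 residues without a stretch and -0.10 at 1000 or more. Genes of a class share features such as exon length and depth, so these medians are a description.

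**Figure D5:**
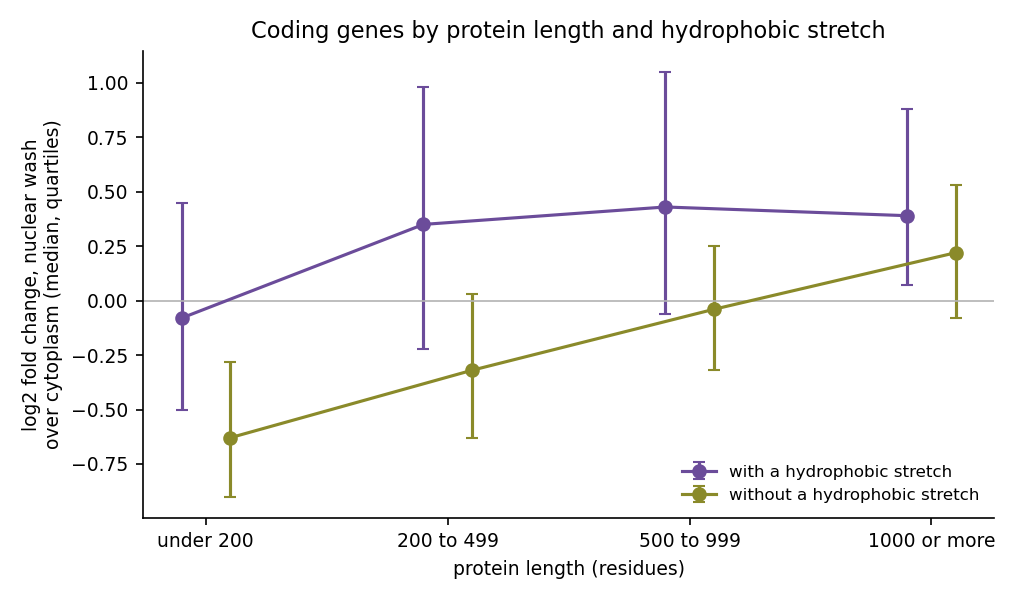
The vertical axis is the log2 fold change of exon counts, nuclear wash over cytoplasm, and the horizontal axis the length class of the protein in residues; points are medians over coding genes and bars run from the lower to the upper quartile, purple for genes with a hydrophobic stretch and olive for genes without. Medians without a stretch climb from -0.63 to 0.22, and medians with one are -0.08 in the shortest class and 0.35 to 0.43 above it.

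The yeast spike-in transcripts took 3.264, 3.136, 4.02 and 4.144% of exon and spike-in counts in the wash and 0.4054, 0.4053, 0.456 and 0.457% in the cytoplasm, with no overlap (two-sided exact permutation test, p = 0.0286, and p = 0.125 when paired by replicate number). When libraries were scaled to the spike-ins, 14866 genes were lower, and 3 (0.0188%) were higher, against 4 higher at an unadjusted p under 0.05. The 3 were SPTBN1 (0.97), IQGAP1 (0.81) and SPTAN1 (0.66). The amount of spike-in per sample is missing from the labels, so these values cannot be read as amounts of RNA per cell, and less RNA in the wash cannot be told apart from more spike-in per RNA.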

How the data were processed

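RNA-seq counts of 4 nuclear wash and 4 cytoplasm libraries were compared. The authors deposited raw counts of reads per gene, one table over exons with 11 yeast spike-in transcripts and one over whole gene bodies, with no normalization. Per the submitters' processing notes, the tools were cutadapt 2.5, STAR 2.7.0a and featureCounts 1.6.2 on hg38. The annotation, the strand setting and the handling of shared reads were not given in the sources used here, so overlapping, antisense and multi-copy genes are uncertain. PCR copies could not be separated from molecules.

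Exon counts were tested with edgeR 4.0.16 (R 4.3.3): filterByExpr, TMM, a quasi-likelihood fit over 16 depleted libraries with 1 term per fraction, and Benjamini-Hochberg adjustment over 15940 genes. Exon counts per library are given in the report and set the precision of low genes. Spike-ins were left out of library sizes. CPM used the TMM factors, which were 0.807 to 0.909 in the 8 libraries. Intronic counts were gene-body minus exon counts, with values below 0 (5.07% of gene and library values) set to 0. Ratios of pairs used 0.5 added counts. Annotation and coding sequences came from GENCODE 29, which held 57447 of 58051 identifiers. Proteins were translated from these transcripts, in place of a protein table, and 99.6% of the coding genes in lists had a value. The fit was tested on simulated data.

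The comparison, its 39 lists and the rule for naming genes were chosen with earlier results of these data known, and 3 lists were added after values were seen. The rule takes landmarks, from each list the 2 called genes that changed most in the direction most members took and 1 of the other direction (mean of at least 5 CPM), the 12 largest changes each way at 10 CPM without overlap, both members of each pair, genes higher with spike-in sizes, and 5 long noncoding RNAs each way. The text leaves some out and says where a gene was chosen after its value was seen. The main tests did not pair libraries and had no term for the prefix. Replicate numbers, which match the number and letter of the column names, were taken as pairs only in the replicate block and the paired permutation tests. Deviations from the group means correlated in every same-numbered pair (0.12, 0.26, 0.24 and 0.15). Libraries of the same prefix but another number did so as well (0.11 to 0.33), so these correlations cannot tell pairs from a shared prefix. Alternatives were the replicate block, DESeq2 1.42.0, RLE factors, no composition factor, spike-in sizes, no filter, gene-body counts, only the 8 libraries, each prefix alone, the undepleted wash, no mitochondrial or rRNA genes, and leaving out each library.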

Additional observations from a re-analysis of the deposited data

Results flagged for a closer look

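In 18 of 308 groups of 4 libraries (5.84%) 1 library stood apart from the other 3 by more than Dixon's 95% critical value for 4 samples, where chance gives about 1 in 20. In the wash, replicate 1 was high in DBN1 (550.8 CPM against 250.1 to 286.2 in the others), RRBP1 (108.9 against 25.37 to 33.14) and TXNDC5 (19.87 against 16.23 to 16.65). Wash replicate 2 was low in PIGO (14.32 CPM against 20.15 to 21.27) and IGF2R (727.7 against 901.6 to 916) and high in COL1A2 (34.71 against 25.14 to 26.18). Wash replicate 3 was high in C1GALT1C1 (18.55 CPM against 15.25 to 15.45) and LMNB2 (142.8 against 123 to 125.5). The log2 ratio of PTPN1 to PTPN2 was low in wash replicate 1 (1.07 against 1.40 to 1.45).

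In the cytoplasm, replicate 4 was high in BANF1 (56.99 CPM against 39.24 to 42.21), NDUFA5 (379.9 against 322.1 to 331.4), DIAPH1 (365.5 against 336 to 340.7) and SDHA (150.5 against 126.3 to 129.9) and low in ERAP1 (33.73 against 41.45 to 42.97) and EXT2 (24.98 against 26.38 to 26.64). Cytoplasm replicate 3 was low in MALAT1 (2545 CPM against 3330 to 3391) and high in H4C3 (612.7 against 320.8 to 369). Cytoplasm replicate 2 was high in FIRRE (30.36 CPM against 27.94 to 28.11).

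The spike-in transcripts, which the gene comparisons leave out, took 3.64% of exon and spike-in counts in the wash and 0.431% in the cytoplasm.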

How the results depend on the processing

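The count of higher genes, 3637, lay between 2489 and 4191 and the count of lower genes, 3416, between 2724 and 4198 under the alternatives other than spike-in sizes, and spike-in sizes gave 3 higher and 14866 lower. Leaving out single libraries gave 3246 to 3504 higher and 3112 to 3306 lower. The median of all genes, 0.05, was 0.00 with only the 8 libraries, -0.01 with no composition factor, -3.10 with spike-in sizes, 0.03 within prefix 1, -0.05 with the undepleted wash, and 0.05 to 0.07 without single libraries. Of 123 called genes named in the text, DESeq2 and RLE factors kept 123, only the 8 libraries 121, no composition factor 122, no filter 120, prefix 1 118 and prefix 2 116. Gene-body counts kept 106 of 119, and the undepleted wash 97, with 17 no longer called and 9 reversed. Without a single library 5 lost their call (FKBP2, NPEPPS, SERPINB6, SEC61B and SPCS1). Intronic counts scaled by the factors of the exon counts gave 9913 higher and 262 lower genes. The replicate block, by the numbers in the labels, left the difference in intronic share at 8.59 points with an exact paired permutation p of 0.125, the smallest that 4 pairs can give, and changed no call of a named gene. The median of the pair differences, 1.56, was 1.19 with gene-body counts, where FKBP2/FKBP1A turned to -0.65, and 1.14 with the undepleted wash, where MAN2B1/MAN2C1 turned to -0.27. Of 838 list medians recomputed, 4 turned: respiratory chain 0.15, ZNF genes -0.12 and immediate early genes 0.10 with the undepleted wash, and ZNF genes -0.01 with no composition factor. With the undepleted wash 9 called genes and, of those not called, PPIA and MT-CO2 turned: NUP155 -0.61, JUND 0.06, MT-TN -0.01, PPIA 0.43, FKBP2 -0.04, TXNDC12 -0.22, NPEPPS -0.51, SERPINB6 0.25, SEC61B 0.18, EMD 0.05 and MT-CO2 0.86. The cause of these turns was not tested. Depth limits genes of a few CPM, and the undepleted wash had 3 libraries of 923464 to 1801293 exon counts.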

Other observations

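Mitochondrial tRNA genes, listed after high values had been seen, were described by their strand. On the minus strand, 7 of the 8 tested were higher in the wash and 0 lower, with a median log2 fold change of 1.64. On the plus strand, 11 of 14 were tested, of which 4 were higher and 2 lower, with a median of -0.15. MT-TN, the asparagine tRNA of the minus strand, had 31.64, 27.24, 35.49 and 18.61 CPM in the wash and 3.174, 1.719, 0.5883 and 3.279 CPM in the cytoplasm (3.71, SE 0.356, edgeR adjusted p = 6.27e-08), with no overlap between the groups. MT-TE and MT-TA, on the same strand, were higher by 3.26 and 3.08. The minus strand mRNA MT-ND6 was higher by 2.79, and the 12 plus strand mRNAs had a median of 0.46, with 5 higher and 0 lower. MT-TN differed by -0.01 between undepleted wash and cytoplasm, and whether reads came from mature tRNAs or from the long transcripts of each strand was not tested.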
